A study of Homo sapiens with 8 samples.

Results

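The 49 interferon-induced genes described here were taken from the deposited count table by their symbols, as 49 of its 23391 genes. They are STAT2 and the interferon regulatory factors IRF1, IRF7 and IRF9, the RNA sensors, the OAS, IFIT, IFITM, MX, GBP, SAMD9 and PARP families, the ISG15 system, the IFI genes and a group of other effectors. Of them, 42 reached 1 cpm (counts scaled to the normalized library total) in 2 or more libraries and were tested, whereas OAS2, BST2, IFI27, IFI44L, CMPK2, TRIM22 and EPSTI1 did not. IFITM1, SAMD9L, RSAD2 and XAF1 reached it in DU145-pc3.1 libraries only, IFITM1 in the untreated ones alone, so the filter favoured their being lower in the other groups. RNA-Seq was performed on DU145 cells, a human prostate cancer cell line, in 4 groups of 2 biological replicates. DU145-pc3.1 cells carried the empty pcDNA3.1-zeo (+) vector, and DU145-Esrrb cells carried the same vector with Esrrb, the estrogen related receptor beta. Both had been selected with 150 µg/ml Zeocine for 3 weeks. The paper states that transfectants were pooled for both vectors, and the DU145-Esrrb cells were a pool of stable transfectants, not 1 clone. In the remaining groups each of the pools received 3 µM DY131, an agonist of the estrogen related receptors beta and gamma. By the paper's methods, cells with and without DY131 were in medium with charcoal-stripped serum. The cells without DY131 received vehicle and are called untreated below, and the length of the treatment is not given in the sources used here.

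Interferons are secreted proteins that bind receptors on the cell surface and, through the Janus kinases, activate transcription factors, STAT2 among them. STAT2 and IRF9 are parts of a complex that binds the interferon-stimulated response element (ISRE) in front of many antiviral genes. The induced proteins sense foreign RNA, degrade it, block its translation or hold back viral entry, and many of them, the sensors included, feed back on the same pathway. Some cancer cell lines express a low level of these genes without added interferon.

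Between 7858743 and 11551690 reads were counted on genes per library, so that the limit set by 3 counts lay between 0.255 and 0.391 cpm. Of the epithelial markers, KRT8 averaged 1093 to 1622 cpm, KRT18 801 to 930 cpm and EPCAM 78.5 to 117 cpm across the 4 groups. KLK3 and KLK2, genes of luminal prostate cells that DU145 is known to lack, had no reads in any library. The leukocyte markers summed to 59.7 to 94.0 cpm, nearly all of it CD68, while CD3E had no reads. ESRRB averaged 8.97 cpm in untreated and 14.9 cpm in DY131-treated DU145-Esrrb cells, and no DU145-pc3.1 library had more than 0.286 cpm, so the libraries went with their labels. The paper calls the libraries biological replicates, and p-values measure only the spread between these samples. Each vector is represented by 1 kind of pool, so Esrrb and other differences between the pools cannot be told apart. In bulk RNA, fewer cells expressing a gene and less RNA per cell cannot be told apart.

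The promoter windows of the members are shown first. The members were chosen as interferon-induced genes, so their share of ISRE letters is not independent of that choice. RefSeq windows on GRCh38.p14, from 250 bases before to 50 bases after a transcription start, were at hand for 40 of the 49 members, DDX58 under its current symbol RIGI. The core letters of the ISRE, GAAA repeated after any 2 bases and read on either strand, occurred in 28 of these 40 genes (70%), compared with 4.38% of the 27305 genes with such a window. The letters TTCNNNGAA of the gamma-activated site, an element of genes induced by type II interferon, which read the same on both strands, occurred in 13 of the 40 members (32.5%) and in 9.38% of all genes. The letters TCAAGGTCA that estrogen related receptors are known to bind occurred on neither strand in the window of any member, and in 0.432% of all genes. Among the 35 tested members with a window, the 24 with the ISRE letters had a median log2 fold change of -0.87 in untreated DU145-Esrrb against DU145-pc3.1 cells, and 15 of them passed the test as lower. The 11 without the letters had a median of -0.44, and 4 of them passed as lower. The split by the letters of the gamma-activated site went the other way. The 10 with these letters had a median of -0.58, and 3 of them passed as lower. The 25 without them had a median of -0.75, and 16 passed as lower. These matches describe letters only, and no test of either difference was made.

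**Figure D1:**
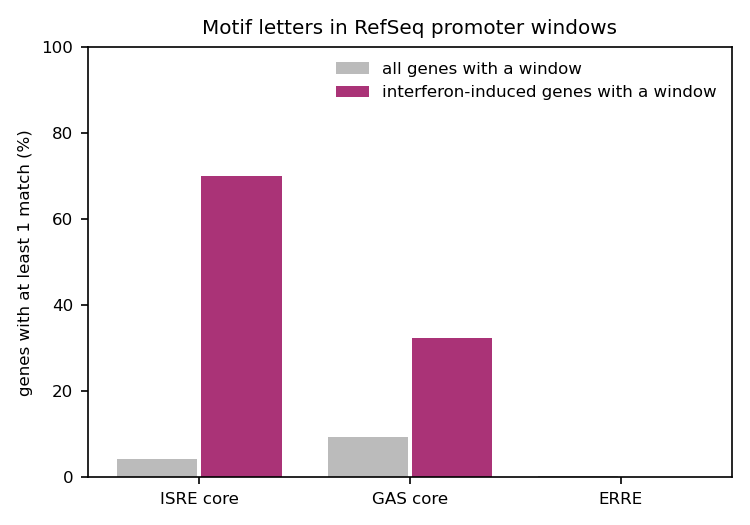
Share of genes with at least 1 match to the letters of each motif in their RefSeq promoter windows, in percent (y axis, from 0), for all genes with a window (grey) and for the 40 interferon-induced genes with a window (purple). The ISRE core stands at 70% of the members against 4.38% of all genes, and the ERRE, the element of estrogen related receptors, at 0 among the members.

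The stretches around the ISRE letters are given for 6 members that fell at least 2-fold under Esrrb and, below them, for 3 members that did not pass the test, since the same core stood in front of both kinds. Each is read in the direction of its gene, ends before the transcription start and has the core in capitals.
DDX60: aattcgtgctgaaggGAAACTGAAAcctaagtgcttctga
IFIT3: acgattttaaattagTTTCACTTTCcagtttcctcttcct
SAMD9: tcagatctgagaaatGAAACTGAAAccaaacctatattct
IFI44: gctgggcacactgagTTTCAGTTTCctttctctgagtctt
RSAD2: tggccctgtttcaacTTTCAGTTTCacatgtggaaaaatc
LGALS3BP: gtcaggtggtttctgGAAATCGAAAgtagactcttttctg
IFIT5: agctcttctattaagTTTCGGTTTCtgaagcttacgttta
IFIH1: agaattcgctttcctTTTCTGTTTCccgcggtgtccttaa
PARP14: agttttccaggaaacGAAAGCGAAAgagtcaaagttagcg
On GRCh38.p14 the stretches lie, for DDX60 at chr4:168318816-168318855 on the minus strand, IFIT3 at chr10:89327860-89327899 on the plus strand and SAMD9 at chr7:93118091-93118130 on the minus strand. Further stretches are those of IFI44 at chr1:78649756-78649795 on the plus strand, RSAD2 at chr2:6877617-6877656 on the plus strand and LGALS3BP at chr17:78979957-78979996 on the minus strand. The last are those of IFIT5 at chr10:89414508-89414547 on the plus strand, IFIH1 at chr2:162318813-162318852 on the minus strand and PARP14 at chr3:122680795-122680834 on the plus strand. The authors mapped their reads to hg18, and no coordinate was carried between builds.

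Many interferon-induced genes were lower in untreated DU145-Esrrb than in DU145-pc3.1 cells. The quasi-likelihood test of edgeR was used, with p-values adjusted after Benjamini and Hochberg over 13856 genes, and a member passed it when the adjusted p was below 0.05. It was called when it also differed at least 2-fold. Of the 42 tested members, 23 passed as lower in DU145-Esrrb cells, while 2.50% of all tested genes did. The members were chosen with earlier results of these data known, so such shares, here and below, describe the list and do not test it. Called lower were 12 members, against 0.397% of all tested genes: DDX60, OASL, IFIT2, IFIT3, MX1, GBP1, SAMD9, SAMD9L, IFI6, IFI44, RSAD2 and LGALS3BP. Of these, SAMD9L and RSAD2 reached 1 cpm only in DU145-pc3.1 libraries, so the filter favoured these 2 calls. IFITM2 alone among the members passed as higher (1.68% of all tested genes), and no member was called higher (0.180%), by edgeR at an unadjusted p under 0.05 or by DESeq2 either. The median log2 fold change of the 42 members was -0.77, and that of all tested genes was 0.0012. In 38 members both DU145-Esrrb libraries lay below both DU145-pc3.1 libraries, as in 25.8% of all tested genes. Without replicate 1 of DU145-pc3.1, in which the members summed to 1239 cpm against 1080 cpm in replicate 2, 6 members were called and the median was -0.61. Without it GBP1, IFI6, MX1, RSAD2 and SAMD9L missed the threshold, at adjusted p from 0.0502 to 0.160, and IFIT2 and LGALS3BP were under 2-fold. GBP1 and IFI6 also missed it without either DU145-Esrrb library, at adjusted p from 0.052 to 0.0994, and MX1 without replicate 1 of DU145-Esrrb (0.0601). LGALS3BP was under 2-fold without replicate 2 of DU145-Esrrb. DESeq2 called 8 members, and GBP1, IFI6, RSAD2 and SAMD9L were not among them.

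**Figure D2:**
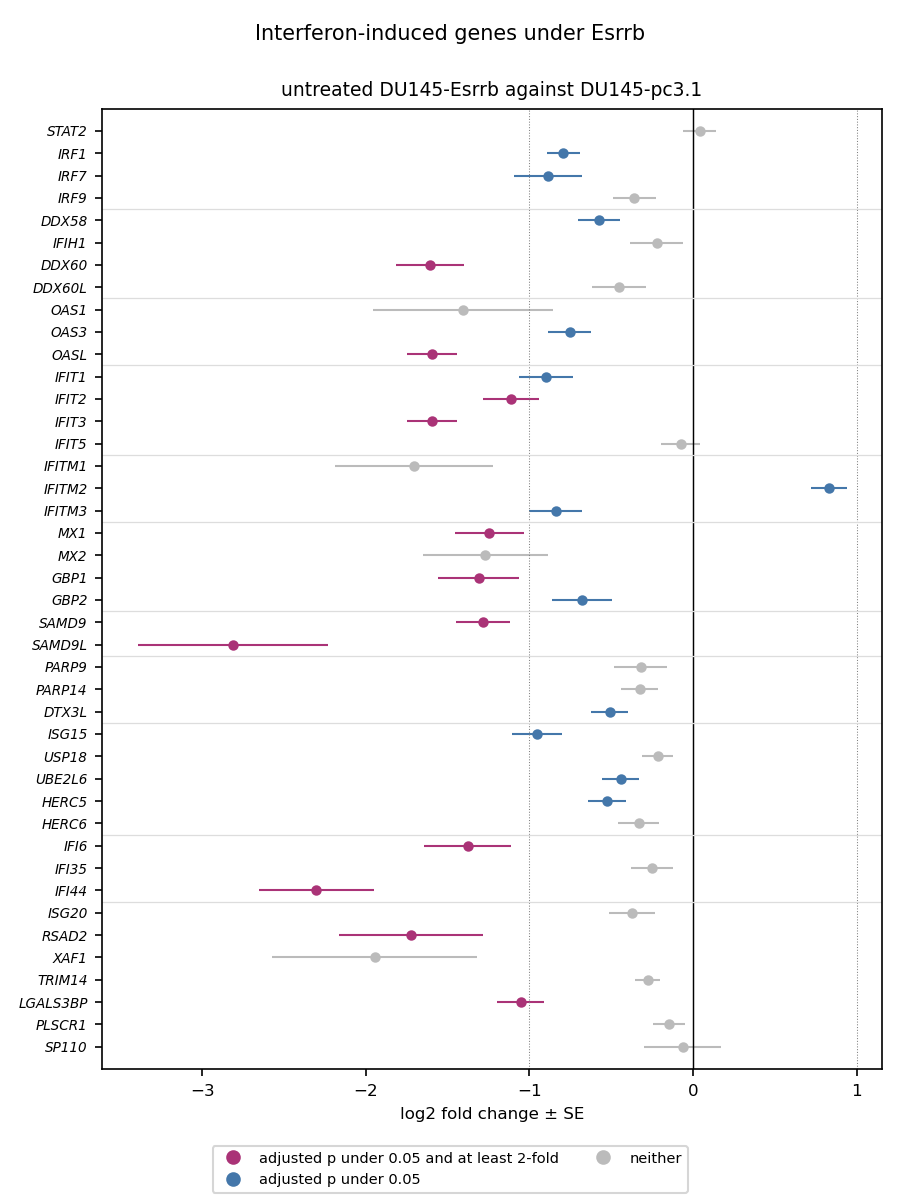
Log2 fold change of the 42 tested interferon-induced genes in untreated DU145-Esrrb against DU145-pc3.1 cells (x axis) with the standard error as bars, genes in rows grouped by family. 40 of the 42 points lie below 0, IFITM2 lies above it at 0.83, and the dotted lines mark 2-fold.

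The genes upstream of the members were looked at in lists of ligands, receptors and sensing genes. Of 11 interferon genes, 8 had no reads in any library, and only IFNE, an epithelial type I interferon, could be tested. IFNE had 5 and 1 reads in DU145-pc3.1, 0 and 2 in DU145-Esrrb, 7 and 4 in DY131-treated DU145-pc3.1 and 9 and 15 in DY131-treated DU145-Esrrb cells. It reached 1 cpm only in the treated DU145-Esrrb libraries, so the filter itself chose it as high there, and no test of its rise is given. Among 15 genes for interferon receptors and the JAK-STAT chain, none passed the edgeR test under Esrrb in untreated cells, 2 had an unadjusted p under 0.05, and DESeq2 also passed 0. Of all tested genes, 2.50% passed that edgeR test as lower and 1.68% as higher. The receptor chain IFNAR1 averaged 126 ± 3.00 cpm (SD, n = 2) in DU145-pc3.1 and 126 ± 0.104 cpm in DU145-Esrrb cells. DY131 changed 7 of the 15 in each pool. In DU145-pc3.1 cells 2 fell and 5 rose, while 18.5% of all tested genes passed as lower and 18.9% as higher. In DU145-Esrrb cells 5 fell and 2 rose, against 29.5% and 29.2% of all tested genes. SOCS1, counted among those that rose and an inhibitor of the Janus kinases, had 2 and 1 reads before and 9 and 11 reads after DY131, and it too reached 1 cpm only in the treated DU145-Esrrb libraries.

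Interferon-induced genes outside the 49 were counted beside them. Of 63 other such genes, 52 could be tested, and their median log2 fold change under Esrrb in untreated cells was -0.17. Of the 52, 6 passed as lower (2.50% of all tested genes) and LY6E passed as higher (1.68%). RARRES3, a phospholipase that restrains growth, was the only one of the 52 called, at -1.07 ± 0.23 (adjusted p = 0.0159), while 0.397% of all tested genes were called lower. Of 18 tested genes for sensing nucleic acids, TRIM25, TRAF3 and DHX58 passed as lower (2.50% of all tested genes). These names and LY6E were chosen after their values were seen. DHX58, the regulator of the sensors encoded by DDX58 and IFIH1, stands in both lists. It averaged 7.32 ± 1.39 cpm (SD, n = 2) in DU145-pc3.1, 4.0 ± 0.710 cpm in DU145-Esrrb, 3.53 ± 1.03 cpm in DY131-treated DU145-pc3.1 and 0.778 ± 0.179 cpm in DY131-treated DU145-Esrrb cells. Its log2 fold change under Esrrb was -0.86 ± 0.23 (adjusted p = 0.0471), and that under DY131 was -1.05 ± 0.24 in DU145-pc3.1 and -2.33 ± 0.39 in DU145-Esrrb cells (adjusted p = 0.00294 and 1.05e-04). The difference between these DY131 effects, -1.28 ± 0.49, did not pass edgeR's interaction test (adjusted p = 0.0539). In treated DU145-Esrrb cells DHX58 had only 5 and 8 reads. Under DY131, 15 of the 52 other interferon-induced genes passed as lower and 7 as higher in DU145-pc3.1, and 23 as lower and 12 as higher in DU145-Esrrb cells. Of the 18 sensing genes 4 passed as lower and 3 as higher in DU145-pc3.1, and 3 as lower and 6 as higher in DU145-Esrrb cells. These counts are read against the same shares of all tested genes, 18.5% lower and 18.9% higher in DU145-pc3.1 and 29.5% lower and 29.2% higher in DU145-Esrrb cells.

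Under DY131 members fell and rose in both pools. In DU145-pc3.1 cells 10 of the 42 tested members passed as lower (18.5% of all tested genes) and DDX58, OAS3 and TRIM14 passed as higher (18.9%). IFITM1, GBP2 and RSAD2 were called lower, against 3.16% of all tested genes, and the median was -0.14. The filter favoured the fall of IFITM1, which reached 1 cpm only in the untreated DU145-pc3.1 libraries. In DU145-Esrrb cells 18 members passed as lower (29.5% of all tested genes), and OAS3, DTX3L and TRIM14 passed as higher (29.2%). OASL, MX2, GBP2, IFI35, RSAD2 and XAF1 were called lower (9.04% of all tested genes). RSAD2 and XAF1 had no reads after DY131, and the limit of 3 counts allows a fold of only 1.58 for RSAD2 and none for XAF1, so their 2-fold calls rest on fitted values. The median was -0.39, or -0.32 with the 3 members that had no reads after DY131 set at the fold that the limit of 3 counts allows. DY131-treated DU145-pc3.1 replicate 2 was higher than replicate 1 in 38 of the 42 members, by a median of 0.35 on the log2 scale compared with 0.025 over all tested genes. Without replicate 1 of this group the median under DY131 in DU145-pc3.1 cells was 0.077 with 2 members called, and without replicate 2 it was -0.23 with 6 called. Leaving out replicate 1 or replicate 2 of untreated DU145-pc3.1 left 1 called member each. The comparisons share libraries: that under Esrrb and that under DY131 in DU145-pc3.1 cells share the untreated DU145-pc3.1 libraries, and that under DY131 in DU145-Esrrb cells uses the same untreated DU145-Esrrb libraries as the first.

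**Figure D3:**
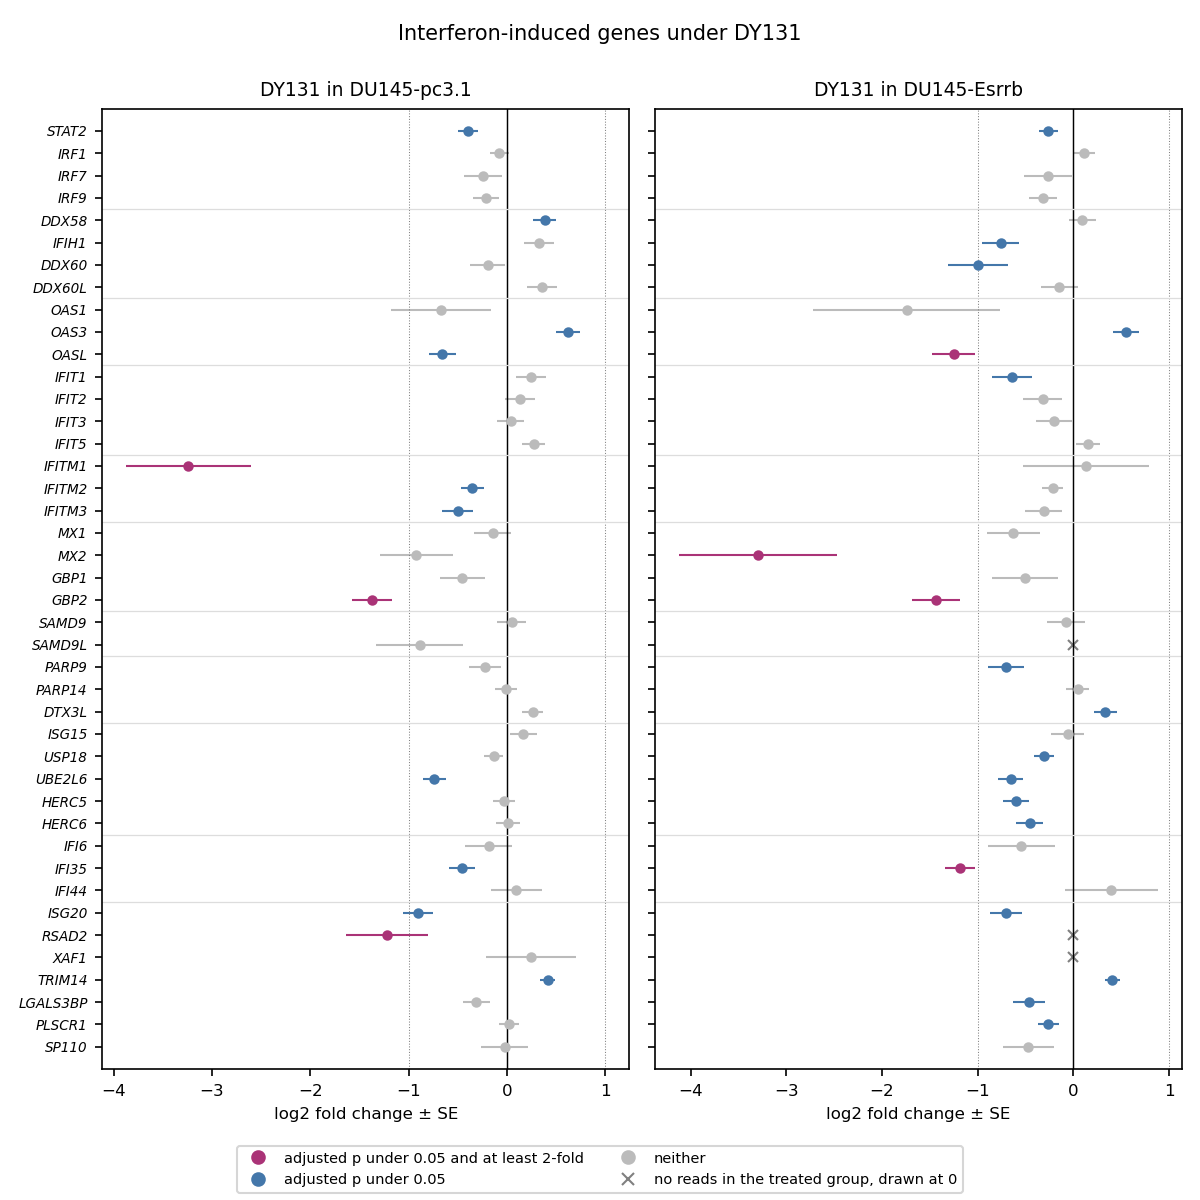
Log2 fold change of the 42 tested interferon-induced genes under DY131 (x axis, standard error as bars) in DU145-pc3.1 (left) and DU145-Esrrb cells (right). The 3 crosses in the right panel are SAMD9L, RSAD2 and XAF1, which had no reads in treated DU145-Esrrb cells and are drawn at 0, and OAS3 and TRIM14 lie above 0 in both panels.

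When both pools carried DY131, 35 of the 42 members passed as lower in DU145-Esrrb cells (25.3% of all tested genes) and IFITM2 passed as higher (25.1%). Called lower were 19 members (6.06% of all tested genes), the 12 of the untreated cells among them, joined by IFIH1, OAS1, IFIT1, MX2, ISG15, HERC5 and XAF1. Among the 19, SAMD9L, RSAD2 and XAF1 reached 1 cpm only in DU145-pc3.1 libraries, so the filter favoured their calls. The median was -0.93, and in 38 members both DU145-Esrrb libraries lay below both DU145-pc3.1 libraries (35.8% of all tested genes). Without replicate 2 of DY131-treated DU145-pc3.1, ISG15, HERC5 and LGALS3BP were under 2-fold in this comparison. The effect of DY131 itself differed between the pools in 5 members by edgeR's interaction test. It was more negative in DU145-Esrrb cells for IFIH1, IFIT1, HERC5 and IFI35, 9.52% of the tested members against 17.6% of all tested genes. For IFITM1 it was more positive, 2.38% against 16.1%, so both shares were below those of all tested genes. IFIH1 was called in the negative direction (4.74%) and IFITM1 in the positive one (1.54%). The number called in this test was 4 without replicate 1 and 0 without replicate 2 of DU145-pc3.1, and 1 without replicate 1 of DU145-Esrrb. It was 7 without replicate 1 and 1 without replicate 2 of DY131-treated DU145-pc3.1, and 1 without 1 of the 2 libraries of DY131-treated DU145-Esrrb cells. In the comparisons with DY131-treated DU145-Esrrb libraries, log2 fold changes went with the share of a transcript's 50-base windows that cross an exon junction, with Spearman's rho of -0.375 for DY131 in DU145-Esrrb cells, -0.476 between the treated pools and -0.46 for the interaction over 13606 genes, which are not independent. The median of this share was 13.7% in the members and 14.4% in all tested genes. After a correction for exon junctions, length and GC content, 6 members were called for DY131 in DU145-Esrrb cells with a median of -0.28, and 18 between the treated pools with a median of -0.81. With this correction 13 members passed as lower and 1, OAS3, as higher for DY131 in DU145-Esrrb cells, and STAT2, DDX60, DTX3L, USP18, HERC5, HERC6, TRIM14, LGALS3BP and PLSCR1 no longer passed, at adjusted p from 0.0598 to 0.779. Between the treated pools 33 passed as lower and 2 as higher, STAT2 at 0.59 (adjusted p = 9.16e-05) beside IFITM2. In the interaction HERC5 (adjusted p = 0.487) and IFI35 (0.0515) no longer passed, and 4 members passed in the negative and 2 in the positive direction. OASL (-0.79, adjusted p = 0.0418), IFIT2 (-0.71, adjusted p = 0.0399) and STAT2 (0.54, adjusted p = 0.0056) passed the interaction test only with this correction.

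Of the transcription factors of the pathway, IRF1 and IRF7 fell under Esrrb while the results for STAT2 and IRF9 did not pass the test. IRF1, which activates interferon-induced genes by itself, had 28.8 and 31.4 cpm in DU145-pc3.1 and 17.7 and 17.1 cpm in DU145-Esrrb cells. Both values under Esrrb were low and close to each other, and the log2 fold change was -0.79 ± 0.10 (SE, adjusted p = 0.000283). IRF7, the amplifier of interferon production, had 14.1 and 10.6 cpm in DU145-pc3.1 and 7.64 and 5.61 cpm in DU145-Esrrb cells, a log2 fold change of -0.89 ± 0.21 (adjusted p = 0.0236). STAT2, a part of the complex that binds the ISRE, had 72.4 and 69.3 cpm in DU145-pc3.1 and 75.6 and 69.9 cpm in DU145-Esrrb cells. These values overlapped, with a log2 fold change of 0.039 ± 0.098 (SE, adjusted p = 0.897). DY131 lowered STAT2 to 61.6 and 46.1 cpm in DU145-pc3.1 and 62.1 and 59.5 cpm in DU145-Esrrb cells, with log2 fold changes of -0.39 (adjusted p = 0.00679) and -0.26 (adjusted p = 0.039). The latter was 0.11 (adjusted p = 0.339) after the correction for exon junctions. IRF1, IRF7 and IRF9 did not pass under DY131 in either pool. IRF9, the DNA-binding part of the complex, had 17.7 and 14.4 cpm in DU145-pc3.1 and 12.5 and 12.4 cpm in DU145-Esrrb cells, but all of its 50-base windows also occur in an overlapping annotated transcript, so its counts are uncertain.

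Of the RNA sensors, DDX60 and DDX58 fell under Esrrb, and IFIH1 differed between the pools in its response to DY131. DDX60, a helicase that helps the sensors bind RNA, was at 15.1 and 10.9 cpm in DU145-pc3.1 and 4.58 and 3.86 cpm in DU145-Esrrb cells. It fell by 1.61 ± 0.21 on the log2 scale (SE, adjusted p = 0.000288). With DY131 it was at 11.1 and 11.5 cpm in DU145-pc3.1 and 1.43 and 2.71 cpm in DU145-Esrrb cells, a further log2 fold change of -1.0 ± 0.31 (adjusted p = 0.0124) in the latter, and of -0.71 (adjusted p = 0.0598) after the correction for exon junctions. IFIH1, the gene of the sensor MDA5, had 11.6 and 10.2 cpm in DU145-pc3.1, 10.2 and 8.46 cpm in DU145-Esrrb, 12.1 and 15.2 cpm in treated DU145-pc3.1 and 5.74 and 5.31 cpm in treated DU145-Esrrb cells. The treated DU145-Esrrb libraries were lowest and the treated DU145-pc3.1 libraries highest. Its log2 fold change under DY131 was 0.32 ± 0.15 (adjusted p = 0.113) in DU145-pc3.1 and -0.76 ± 0.19 (adjusted p = 0.00311) in DU145-Esrrb cells. The difference between these effects was -1.08 ± 0.25 (adjusted p = 0.00353) by edgeR's interaction test, and it was under 2-fold with the correction for exon junctions (-0.96). It was under 2-fold, from -0.92 to -0.99, also without replicate 2 of untreated or DY131-treated DU145-pc3.1 or replicate 1 of DU145-Esrrb. DDX58, the gene of the sensor RIG-I, fell under Esrrb from 26.6 and 21.7 to 15.5 and 16.8 cpm (-0.58 ± 0.13, adjusted p = 0.0172) and rose under DY131 in DU145-pc3.1 cells to 30.4 and 32.5 cpm (0.38 ± 0.12, adjusted p = 0.0192). DDX60L, the neighbour of DDX60 on chromosome 4, had a log2 fold change of -0.45 under Esrrb (adjusted p = 0.165) and passed only between the treated pools, at -0.96 ± 0.18 (adjusted p = 0.000335). That value was -0.54 (adjusted p = 0.0206) after the correction for exon junctions.

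The OAS family makes or resembles the enzymes that produce the messenger activating RNase L, and its members moved apart under DY131. OASL, which has no synthetase activity and enhances RIG-I signalling, had 35 and 26.2 cpm in DU145-pc3.1 and 10.7 and 9.47 cpm in DU145-Esrrb cells. With DY131 it had 17.6 and 21.2 cpm in DU145-pc3.1 and 3.78 and 4.63 cpm in DU145-Esrrb cells. The 4 groups did not overlap, and OASL fell under Esrrb by 1.60 ± 0.15 (adjusted p = 1.57e-05), under DY131 by 0.66 ± 0.14 in DU145-pc3.1 (adjusted p = 0.00182) and by 1.25 ± 0.23 in DU145-Esrrb cells (adjusted p = 0.000217). Between the treated pools its log2 fold change was -2.19 ± 0.21 (adjusted p = 5.95e-07). OAS3, the synthetase known to be most active on long double-stranded RNA, had 86.7 and 72 cpm in DU145-pc3.1 and 45.5 and 48.6 cpm in DU145-Esrrb cells, and with DY131 102 and 143 cpm in DU145-pc3.1 and 73.5 and 64.5 cpm in DU145-Esrrb cells. Esrrb lowered it (-0.75 ± 0.13, adjusted p = 0.00387), and DY131 raised it in DU145-pc3.1 (0.62 ± 0.12, adjusted p = 0.00101) and in DU145-Esrrb cells (0.55 ± 0.14, adjusted p = 0.00293). The difference between these DY131 effects was -0.070 ± 0.19 (adjusted p = 0.801). OAS1 was counted with 18 and 31 reads in DU145-pc3.1, 12 and 7 in DU145-Esrrb, 6 and 23 in treated DU145-pc3.1 and 0 and 4 in treated DU145-Esrrb cells. It passed only between the treated pools (-2.47 ± 0.88, adjusted p = 0.0292), and not without replicate 2 of treated DU145-pc3.1 cells (adjusted p = 0.339). OAS2, not tested, had 12 and 8 reads in DU145-pc3.1 and 2 and 4 in DU145-Esrrb cells. OAS1 (chr12:112906777-112933222), OAS3 (chr12:112938352-112973249) and OAS2 (chr12:112978395-113011723) are neighbours on GRCh38 in GENCODE 29, and OASL (chr12:121019111-121039242) lies apart from them.

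The IFIT genes encode proteins that bind foreign RNA ends and block its translation, and IFIT5 stood apart from the others under Esrrb in untreated cells. IFIT3 had 65.9 and 52.2 cpm in DU145-pc3.1 and 19.9 and 19.1 cpm in DU145-Esrrb cells, and it fell by 1.60 ± 0.15 on the log2 scale (SE, adjusted p = 1.57e-05). IFIT2 had 34.5 and 28.7 cpm in DU145-pc3.1 and 15.5 and 13.6 cpm in DU145-Esrrb cells and fell by 1.11 ± 0.17 (adjusted p = 0.0012). IFIT1 had 38.6 and 31.6 cpm in DU145-pc3.1 and 19.8 and 17.7 cpm in DU145-Esrrb cells and fell by 0.90 ± 0.17 (adjusted p = 0.00543), short of 2-fold. In IFIT1, IFIT2 and IFIT3 every DU145-Esrrb library lay below every DU145-pc3.1 library. IFIT5 had 20.6 and 24.2 cpm in DU145-pc3.1 and 22.2 and 20.3 cpm in DU145-Esrrb cells, which overlap, and its log2 fold change was -0.076 ± 0.12 (adjusted p = 0.815). All 4 genes lie on the plus strand of chromosome 10, IFIT2 at chr10:89283694-89309276, IFIT3 at chr10:89327894-89340971, IFIT1 at chr10:89392546-89406486 and IFIT5 at chr10:89414586-89421001, and IFIT5 has 2 copies of the ISRE core within 45 bases before its start. None of the 4 passed edgeR's test under DY131 in DU145-pc3.1 cells, where 1 had an unadjusted p under 0.05 and DESeq2 also passed 0. IFIT1 had 32.7 and 50.6 cpm in treated DU145-pc3.1 and 12.1 and 12 cpm in treated DU145-Esrrb cells. It fell under DY131 in DU145-Esrrb cells (-0.64 ± 0.21, adjusted p = 0.014), and this effect differed from that in DU145-pc3.1 cells by -0.89 ± 0.25 (adjusted p = 0.0143). Between the treated pools IFIT1, IFIT2 and IFIT3 had log2 fold changes of -1.78, -1.57 and -1.83 (adjusted p = 1.69e-06, 5.77e-06 and 3.92e-07), and IFIT5 had -0.20 (adjusted p = 0.196). After the correction for exon junctions IFIT5 passed as lower there too, at -0.39 (adjusted p = 0.0114). With it IFIT2 also passed under DY131 in DU145-Esrrb cells (-0.54, adjusted p = 0.0255) and in the interaction (-0.71, adjusted p = 0.0399).

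**Figure D4:**
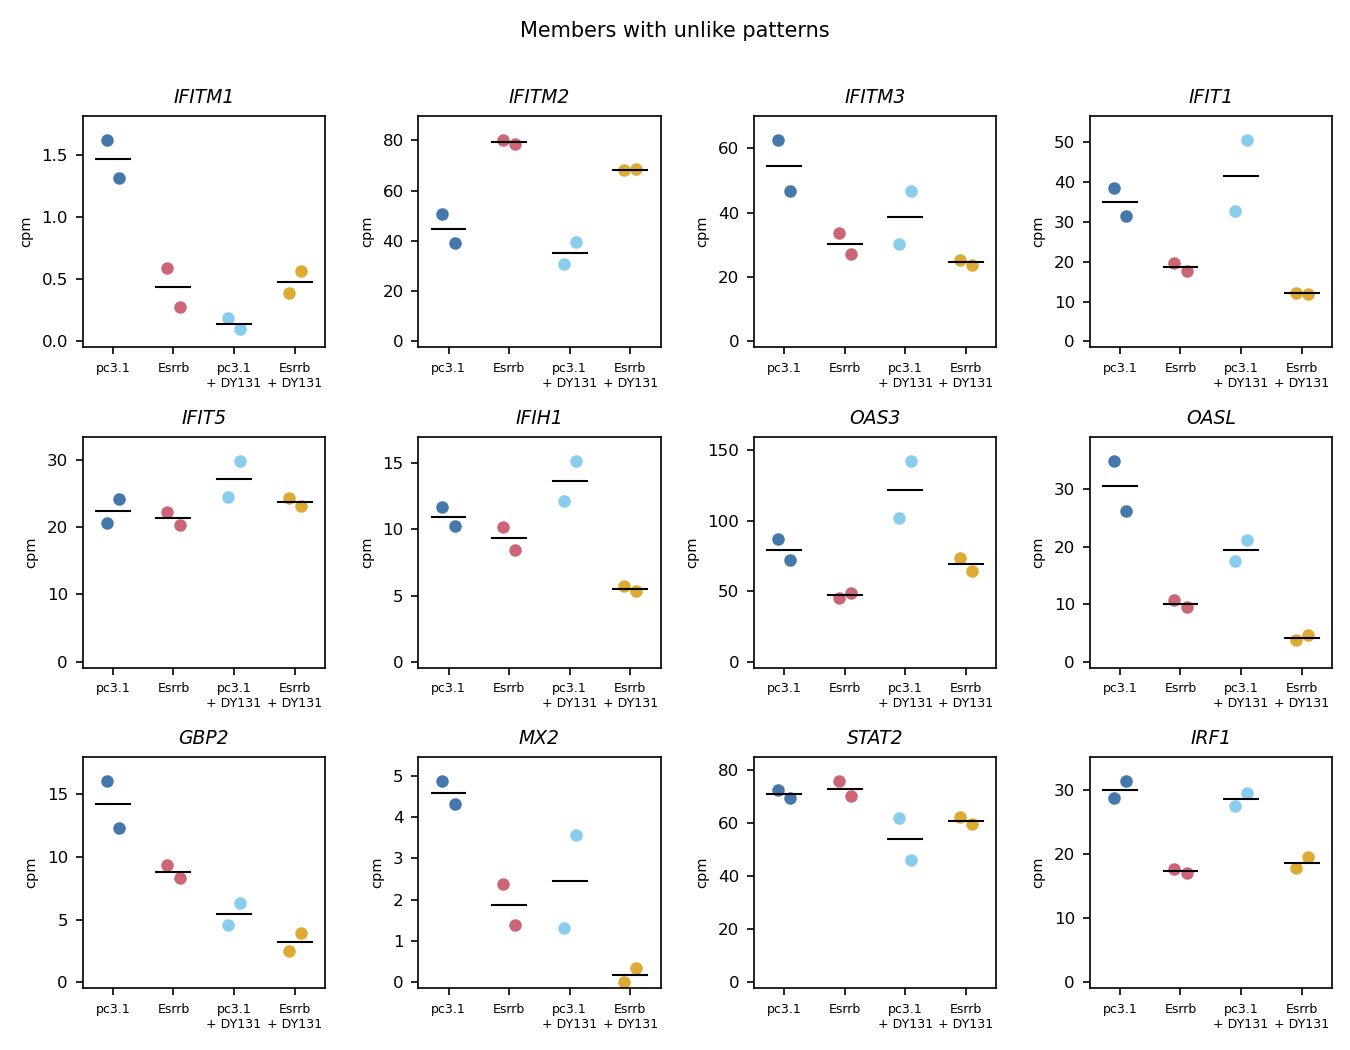
Level in cpm (y axis, from 0) of 12 members in each library (points) of the 4 groups (x axis), with the group mean as a line. IFITM2 lies between 78.6 and 80.1 cpm in untreated DU145-Esrrb cells, above its DU145-pc3.1 libraries, while IFITM3, IFIT1, OASL and IRF1 lie below theirs.

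The IFITM genes encode small membrane proteins that restrict the fusion of viruses with the cell, and IFITM2 and IFITM3 went in opposite directions under Esrrb. IFITM2 had 50.6 and 39 cpm in DU145-pc3.1 and 80.1 and 78.6 cpm in DU145-Esrrb cells, and rose by 0.83 ± 0.11 on the log2 scale (SE, adjusted p = 0.000318). IFITM3 had 62.5 and 46.6 cpm in DU145-pc3.1 and 33.5 and 27.1 cpm in DU145-Esrrb cells and fell by 0.84 ± 0.16 (adjusted p = 0.00783). With DY131, IFITM2 had 30.7 and 39.4 cpm in DU145-pc3.1 and 68.2 and 68.5 cpm in DU145-Esrrb cells, and IFITM3 30.4 and 46.6 cpm in DU145-pc3.1 and 25.2 and 23.9 cpm in DU145-Esrrb cells, so the opposite directions were also found between the treated pools (0.97 and -0.65, adjusted p = 7.68e-06 and 0.00849). IFITM1 was barely expressed, with 17 and 15 reads in DU145-pc3.1, 7 and 3 in DU145-Esrrb, 2 and 1 in treated DU145-pc3.1 and 3 and 5 in treated DU145-Esrrb cells. Since only the untreated DU145-pc3.1 libraries reached 1 cpm, the filter favoured a fall from them. Under DY131 its log2 fold change was -3.24 ± 0.63 (adjusted p = 0.000919) in DU145-pc3.1 and 0.13 ± 0.66 (adjusted p = 0.879) in DU145-Esrrb cells. The 3 reads left after DY131 in DU145-pc3.1 cells gave a ratio of 0.0985 to the untreated ones, with an exact 95% interval from 0.0193 to 0.315 that covers counting error only. The difference between the pools was 3.37 ± 0.99 (adjusted p = 0.0161) by edgeR's interaction test, and DESeq2 gave an adjusted p of 0.0967 for it. Without 1 of the treated DU145-Esrrb libraries the adjusted p was 0.111 by edgeR. Of their 50-base windows, 42.3% in IFITM1, 15.7% in IFITM2 and 20.3% in IFITM3 also occur in transcripts of other genes, mostly each other, and how the authors' program assigned such reads is not stated, so these values are uncertain. BST2, the gene of tetherin, which holds budding viruses at the membrane, had 4 and 3 reads in DU145-pc3.1 and no reads in DU145-Esrrb cells, with or without DY131. Over the untreated libraries that is at least 1.22-fold lower against the limit of 3 counts.

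The GTPases of the MX and GBP families act on viral nucleocapsids and on vacuoles of intracellular pathogens. All 4 were lower under Esrrb in untreated cells, and all but MX2 passed the test. MX1 had 25.5 and 22.2 cpm in DU145-pc3.1 and 9.34 and 10.8 cpm in DU145-Esrrb cells, a fall of 1.25 ± 0.21 (SE, adjusted p = 0.00278). GBP1 had 5.15 and 4.75 cpm in DU145-pc3.1 and 1.87 and 2.12 cpm in DU145-Esrrb cells, a fall of 1.31 ± 0.25 (adjusted p = 0.00641). Neither gene passed under DY131 in either pool. Both were also lower in DU145-Esrrb cells when the pools were treated (-1.73 and -1.36, adjusted p = 3.76e-05 and 0.00173). GBP2 was lowered by DY131 in both pools. It had 16 and 12.3 cpm in DU145-pc3.1 and 4.58 and 6.35 cpm after DY131, and 9.34 and 8.28 cpm in DU145-Esrrb and 2.48 and 3.96 cpm after DY131. The log2 fold changes were -1.38 ± 0.20 (adjusted p = 7.77e-05) and -1.43 ± 0.25 (adjusted p = 0.000162), their difference was -0.056 ± 0.33 (adjusted p = 0.914), and the log2 fold change under Esrrb was -0.68 ± 0.18 (adjusted p = 0.0463). Of the windows of GBP1, 13.3% also occur in other transcripts, and of those of IRF1 15.2%. MX2 had 51 and 49 reads in DU145-pc3.1, 28 and 15 in DU145-Esrrb, 14 and 36 in treated DU145-pc3.1 and 0 and 3 in treated DU145-Esrrb cells. It did not pass under Esrrb (-1.27 ± 0.38, adjusted p = 0.0791), fell under DY131 in DU145-Esrrb cells (-3.30 ± 0.82, adjusted p = 0.00285) and was lower between the treated pools (-3.65 ± 0.79, adjusted p = 0.00127). These fits rest on the 3 reads of MX2 in treated DU145-Esrrb cells, a ratio of 0.0957 to the untreated cells (exact 95% interval from 0.019 to 0.299) and of 0.0755 to treated DU145-pc3.1 cells (from 0.0151 to 0.234), for counting error only.

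SAMD9 and SAMD9L, neighbours on chromosome 7 (chr7:93099513-93118023 and chr7:93130055-93148369), encode cytoplasmic proteins that restrict poxviruses and growth. SAMD9 had 17.7 and 17.9 cpm in DU145-pc3.1 and 7.38 and 7.17 cpm in DU145-Esrrb cells. The replicates lay close together, and SAMD9 fell by 1.29 ± 0.16 (SE, adjusted p = 0.000273). DY131 had no effect that passed the test on SAMD9 in either pool (0.045 ± 0.14 and -0.078 ± 0.20), and between the treated pools the log2 fold change was -1.41 ± 0.18 (adjusted p = 1.05e-05). SAMD9L was rarer, with 24 and 25 reads in DU145-pc3.1, 5 and 2 in DU145-Esrrb, 6 and 19 in treated DU145-pc3.1 and no reads in treated DU145-Esrrb cells. It fell under Esrrb by 2.81 ± 0.58 (adjusted p = 0.0128), the most negative log2 fold change among the members called in that comparison. The call was lost without any 1 of the 4 untreated libraries, at adjusted p from 0.0743 to 0.151. Between the treated pools SAMD9L was at least 3.35-fold lower against the limit of 3 counts (adjusted p = 0.00175). It reached 1 cpm only in DU145-pc3.1 libraries, so the filter favoured its lower values in DU145-Esrrb cells. The window of SAMD9L held none of the motif letters, and that of SAMD9 held the ISRE core.

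The PARP group had a median log2 fold change of -0.33 under Esrrb, the closest to 0 among the families. PARP14, which adds ADP-ribose to proteins, had 66.4 and 53.7 cpm in DU145-pc3.1 and 49.2 and 46.4 cpm in DU145-Esrrb cells. PARP9, of the same enzyme family, had 17 and 15.8 cpm in DU145-pc3.1 and 12.8 and 13.4 cpm in DU145-Esrrb cells. Their log2 fold changes were -0.33 and -0.32 (adjusted p = 0.135 and 0.345). DTX3L, the ubiquitin ligase that works in a complex with PARP9, had 40 and 34.6 cpm in DU145-pc3.1 and 27 and 25.3 cpm in DU145-Esrrb cells and fell by 0.51 ± 0.11 (SE, adjusted p = 0.0178). DTX3L and PARP9 start head to head, and the same 10 bases of ISRE core at chr3:122564332-122564341 lie in the windows of both. Under DY131 in DU145-Esrrb cells PARP9 fell (-0.70 ± 0.19, adjusted p = 0.00513) while DTX3L rose (0.33 ± 0.12, adjusted p = 0.0256). Of their windows 15.6% in PARP9 and 3.37% in DTX3L cross an exon junction, and after the correction the log2 fold changes were -0.71 (adjusted p = 0.0034) and 0.042 (adjusted p = 0.779). Without the correction, PARP9 had 7.56 and 8.48 cpm and DTX3L 33.1 and 32.9 cpm in treated DU145-Esrrb cells, each with close replicates. In DU145-pc3.1 cells neither passed under DY131 (-0.22 and 0.26, adjusted p = 0.308 and 0.0717).

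ISG15 is a ubiquitin-like protein that UBE2L6 and the ligase HERC5 attach to other proteins and USP18 removes, and ISG15, UBE2L6 and HERC5 fell under Esrrb. Per kilobase of transcript ISG15 was the most expressed member in DU145-pc3.1 cells, at 70.1 cpm per kb, but its replicates spread wider than its distance to IFITM2 and IFITM3 at 68 and 67.5 cpm per kb. ISG15 had 50.9 and 38.4 cpm in DU145-pc3.1 and 22 and 24 cpm in DU145-Esrrb cells, a log2 fold change of -0.95 ± 0.15 (adjusted p = 0.00162). With DY131 it had 41.7 and 58.3 cpm in DU145-pc3.1 and 21.4 and 22.7 cpm in DU145-Esrrb cells, a log2 fold change of -1.18 ± 0.16 (adjusted p = 2e-05) between the treated pools. UBE2L6 fell under Esrrb (-0.44 ± 0.11, adjusted p = 0.034) and under DY131 in DU145-pc3.1 (-0.74, adjusted p = 0.00014) and in DU145-Esrrb cells (-0.66, adjusted p = 0.000439). HERC5 had 22.2 and 20.9 cpm in DU145-pc3.1, 14.7 and 15.3 cpm in DU145-Esrrb, 19.6 and 22.6 cpm in treated DU145-pc3.1 and 9.65 and 10.1 cpm in treated DU145-Esrrb cells. It fell under Esrrb (-0.52 ± 0.12, adjusted p = 0.0164) and again under DY131 in DU145-Esrrb cells (-0.60 ± 0.14, adjusted p = 0.00146), and the latter effect differed from that in DU145-pc3.1 cells by -0.57 ± 0.18 (adjusted p = 0.0212). After the correction for exon junctions, which 31.1% of its windows cross, these values were -0.29 (adjusted p = 0.0835) and -0.18 (adjusted p = 0.487). Between the treated pools HERC5 was at -1.10 ± 0.13 (adjusted p = 6.84e-06), and at -0.69 after the correction for exon junctions. USP18, of whose windows 23.4% occur in other transcripts, and HERC6 did not pass under Esrrb in untreated cells (-0.22 and -0.33), and both fell under DY131 in DU145-Esrrb cells (-0.31 and -0.45, adjusted p = 0.0194 and 0.0114), but not after the correction (-0.12 and -0.26, adjusted p = 0.332 and 0.118).

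Among the IFI genes, IFI44 and IFI6 were called under Esrrb and IFI35 under DY131. IFI44, a cytoplasmic protein that restrains viral replication and proliferation, had 7.44 and 5.37 cpm in DU145-pc3.1 and 0.679 and 1.93 cpm in DU145-Esrrb cells, a fall of 2.30 ± 0.35 (SE, adjusted p = 0.00122). IFI6, a membrane protein with antiviral and anti-apoptotic action, had 29 and 22.1 cpm in DU145-pc3.1 and 9.34 and 10.3 cpm in DU145-Esrrb cells, a fall of 1.38 ± 0.27 (adjusted p = 0.00729). Neither passed under DY131. In treated DU145-pc3.1 cells the replicates of IFI6 were far apart, at 13.8 and 31.2 cpm. IFI35, which takes part in innate immune signalling, had 15.2 and 14.1 cpm in DU145-pc3.1, 11.8 and 12.8 cpm in DU145-Esrrb, 10.7 and 10.6 cpm in treated DU145-pc3.1 and 5.48 and 5.31 cpm in treated DU145-Esrrb cells. It did not pass under Esrrb (-0.25 ± 0.13, adjusted p = 0.338), fell under DY131 in DU145-pc3.1 (-0.46 ± 0.13, adjusted p = 0.012) and fell further in DU145-Esrrb cells (-1.19 ± 0.16, adjusted p = 1.26e-05). The difference was -0.73 ± 0.21 (adjusted p = 0.0142) by edgeR's interaction test. After the correction for exon junctions the log2 fold change in DU145-Esrrb cells was -0.86 (adjusted p = 2.61e-04) and the difference -0.59 (adjusted p = 0.0515). IFI44L and IFI27, not tested, had at most 2 and 9 reads in any library.

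LGALS3BP, a secreted glycoprotein that binds galectins, had 70.5 and 56.4 cpm in DU145-pc3.1 and 34.5 and 26.4 cpm in DU145-Esrrb cells. It fell by 1.05 ± 0.14 (SE, adjusted p = 0.00045), and DY131 lowered it further in DU145-Esrrb cells to 21 and 23.2 cpm (-0.47 ± 0.17, adjusted p = 0.0287), though at -0.36 (adjusted p = 0.0928) after the correction for exon junctions. RSAD2, the gene of viperin, which makes a chain terminator of viral RNA synthesis, had 19 and 23 reads in DU145-pc3.1, 6 and 7 in DU145-Esrrb, 6 and 11 in treated DU145-pc3.1 and no reads in treated DU145-Esrrb cells. It fell under Esrrb (-1.72 ± 0.44, adjusted p = 0.0398) and under DY131 in DU145-pc3.1 cells (-1.22 ± 0.42, adjusted p = 0.0319), and the call under Esrrb was lost without any 1 of the 4 untreated libraries, at adjusted p from 0.160 to 0.293. The call under DY131 was lost without either untreated DU145-pc3.1 library or without replicate 1 of the treated ones, at adjusted p from 0.0847 to 0.187. After DY131 it was at least 1.58-fold lower in DU145-Esrrb cells against the limit of 3 counts (adjusted p = 0.00454), and at least 2.26-fold lower than in treated DU145-pc3.1 cells. CMPK2, its neighbour on chromosome 2, had 5 and 7 reads in DU145-pc3.1, 1 and 0 in DU145-Esrrb and no reads in any treated library. XAF1, an antagonist of an apoptosis inhibitor, had 15 and 8 reads in DU145-pc3.1, 4 and 2 in DU145-Esrrb, 12 and 14 in treated DU145-pc3.1 and no reads in treated DU145-Esrrb cells. Both RSAD2 and XAF1 reached 1 cpm only in DU145-pc3.1 libraries, so the filter favoured their lower values in DU145-Esrrb cells. XAF1 was at least 3.44-fold lower between the treated pools (adjusted p = 0.000597), and its call under DY131 in DU145-Esrrb cells had an adjusted p of 0.0465 at levels under the limit of 3 counts. That call was lost without any 1 of the 4 libraries, at adjusted p from 0.0523 to 0.158, and 69.6% of the windows of XAF1 occur in other transcripts.

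The remaining effectors did not pass under Esrrb in untreated cells. ISG20, a nuclease for RNA, had 13.6 and 12.9 cpm in DU145-pc3.1 and 10.3 and 10.1 cpm in DU145-Esrrb cells, and DY131 lowered it in both pools, by 0.91 ± 0.15 to 6.73 and 7.34 cpm in DU145-pc3.1 (adjusted p = 0.000257) and by 0.71 ± 0.17 to 7.04 and 5.54 cpm in DU145-Esrrb cells (adjusted p = 0.00207). TRIM14, an adaptor of the mitochondrial sensing complex, was raised by DY131 in both pools, from 81.8 and 85.7 to 104 and 119.9 cpm in DU145-pc3.1 and from 67 and 71.3 to 94.4 and 88.8 cpm in DU145-Esrrb cells. Its log2 fold changes were 0.41 and 0.41 (adjusted p = 0.000533 and 0.000425), and their difference was -0.0090 ± 0.11 (adjusted p = 0.959). After the correction for exon junctions the change in DU145-Esrrb cells was 0.19 (adjusted p = 0.0605). PLSCR1, a phospholipid scramblase, and SP110, a nuclear body protein, had log2 fold changes of -0.15 and -0.065 under Esrrb (adjusted p = 0.503 and 0.933). EPSTI1 and TRIM22, not tested, had at most 6 and 2 reads in any library.

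**Figure D5:**
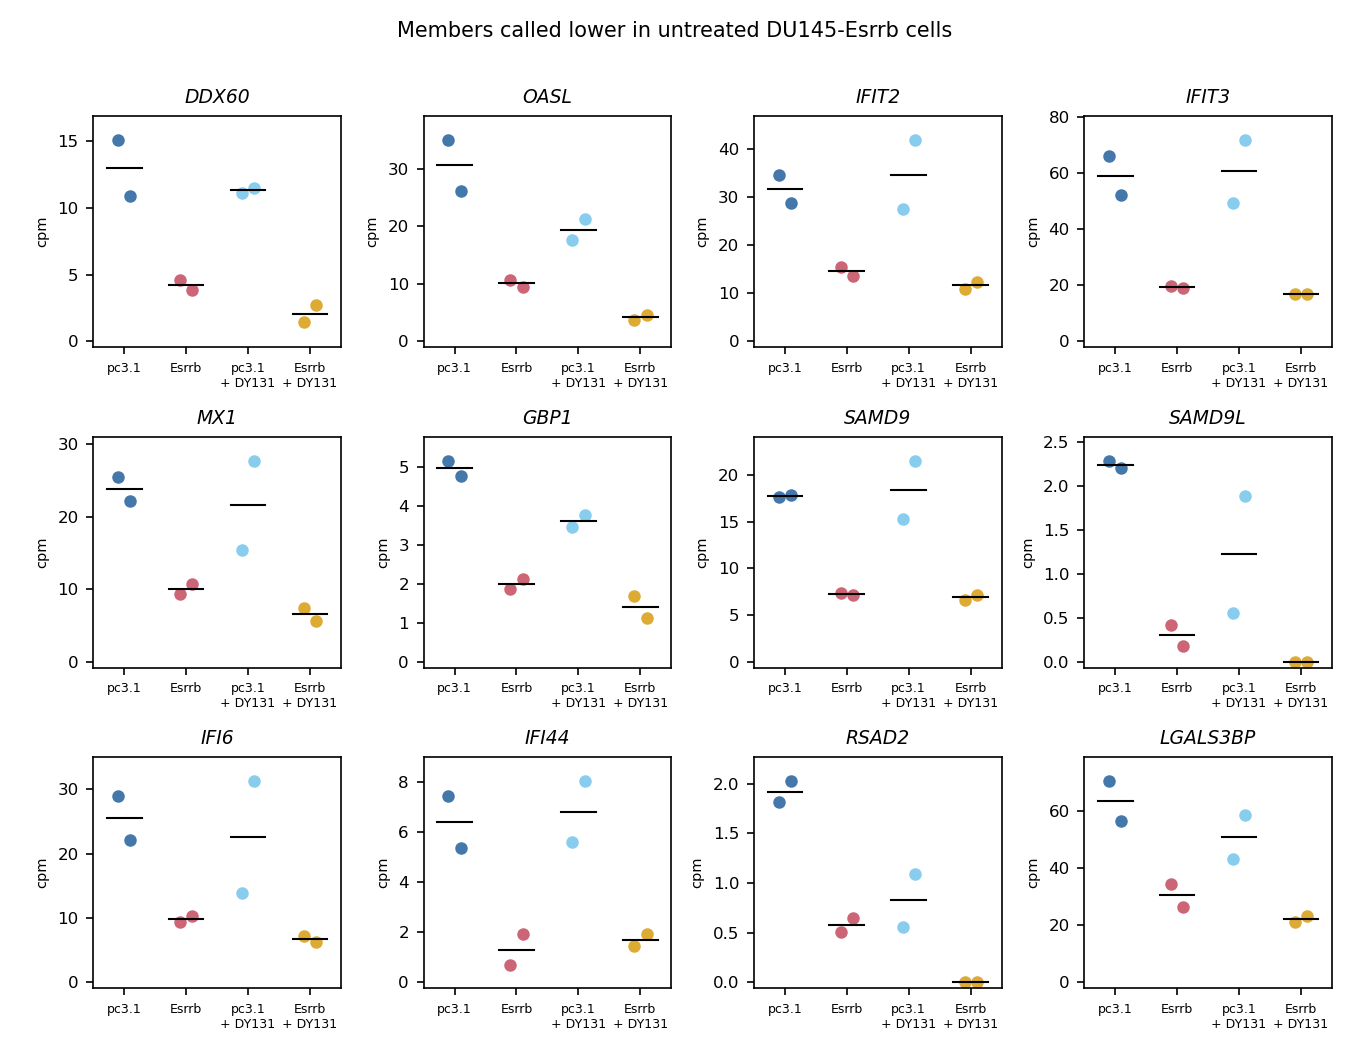
Level in cpm (y axis, from 0) of the 12 members called lower in untreated DU145-Esrrb cells, in each library (points) of the 4 groups (x axis), with the group mean as a line. In each panel both untreated DU145-Esrrb libraries lie below both DU145-pc3.1 libraries, and SAMD9L and RSAD2 reach 0 in treated DU145-Esrrb cells.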

How the data were processed

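After trimming (FASTX-Toolkit) and mapping to hg18 (TopHat2), the authors deposited raw counts of reads per gene for 8 libraries from a stranded mRNA kit. How strand and shared reads were counted is not stated. Per the labels, edgeR was used. The DU145-Esrrb libraries with DY131 share 1 heading and carry no replicate number. Counts were analysed in R 4.3.3 with edgeR 4.0.16 and DESeq2 1.42.0 and mgcv 1.9.3. Genes that reached 1 cpm in 2 or more libraries were kept, TMM was applied, and 1 model of 4 groups was fitted with the quasi-likelihood test. Steps were tested on simulated data. Members and lists were chosen with earlier results of these data known. Full statistics were planned for members called in at least 1 comparison. Where over 12 were called, they were planned for the OAS, IFIT, IFITM, MX, SAMD9, PARP and STAT/IRF members and the 3 other members with the largest change. List genes are named where called or where a result turns on them. Exon junctions, shared windows and gene positions came from GENCODE 29 on GRCh38. Alternatives were other scaling, filters and tests, left-out libraries, a replicate block and a correction for length, GC content and exon junctions. Some genes of the lists are not reported here.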

Additional observations from a re-analysis of the deposited data

Results flagged for a closer look

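The difference between the pools in the effect of DY131 passed edgeR's interaction test in 5 members, with 2 libraries in each group. Of the tested members 9.52% passed it in the negative and 2.38% in the positive direction. Both shares were below those of all tested genes, 17.6% and 16.1%. On the log2 scale a negative difference means a more negative effect of DY131 in DU145-Esrrb than in DU145-pc3.1 cells. The difference was -0.57 for HERC5 (adjusted p = 0.0212) and -0.73 for IFI35 (adjusted p = 0.0142). For IFIH1 it was -1.08 (adjusted p = 0.00353) and for IFIT1 -0.89 (adjusted p = 0.0143). It was 3.37 for IFITM1 (adjusted p = 0.0161), in the opposite direction and on at most 17 reads per library. HERC5 fell under DY131 in DU145-Esrrb cells while its log2 fold change in DU145-pc3.1 cells was -0.030. Over all genes the difference went with the share of windows that cross an exon junction, with a Spearman's rho of -0.46. This share was 31.1% in HERC5, 24.9% in IFI35, 20.7% in IFIH1, 2.68% in IFIT1 and 6.08% in IFITM1, and its median over all tested genes was 14.4%. After the correction for exon junctions, length and GC content the difference was -0.18 for HERC5 (adjusted p = 0.487), -0.59 for IFI35 (adjusted p = 0.0515), -0.96 for IFIH1 (adjusted p = 0.00839), -1.11 for IFIT1 (adjusted p = 0.00233) and 3.12 for IFITM1 (adjusted p = 0.0316). OASL and IFIT2, in the negative direction, and STAT2, in the positive one, passed only with this correction. IFITM1 reached 1 cpm only in the untreated DU145-pc3.1 libraries, so the filter favoured this direction, and DESeq2 gave it an adjusted p of 0.0967. No group was large enough for a check of single outlying libraries.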

How the results depend on the processing

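No member called in any comparison changed sign under any alternative run. Calls at an adjusted p alone numbered 24 members under Esrrb in untreated cells, 13 and 21 for DY131 in DU145-pc3.1 and DU145-Esrrb cells, 36 between the treated pools and 5 for the interaction. With at least 10 counts in every library, which drops the members that reach few reads, the median under Esrrb was -0.52, and 1 member was called for DY131 in DU145-pc3.1 cells and 1 for the interaction. DESeq2 also called 1 member in each of these 2. The correction for length, GC content and exon junctions moved the median for DY131 in DU145-Esrrb cells to -0.28. Leaving out each library in turn gave 6 to 14 called members under Esrrb, 1 to 6 for DY131 in DU145-pc3.1, 5 to 6 for DY131 in DU145-Esrrb, 16 to 23 between the treated pools and 0 to 7 for the interaction. With the replicate block in the 6 numbered libraries, 11 members were called under Esrrb and 3 for DY131 in DU145-pc3.1 cells, as without the block in the same libraries. The deviations of same-numbered libraries correlated at 0.0917, 0.0229 and -0.0685, so the numbers were not read as pairing. Of the called values, 128 of 153 alternatives under Esrrb, 29 of 35 and 59 of 67 for DY131 in DU145-pc3.1 and DU145-Esrrb, 213 of 219 between the treated pools and 19 of 25 for the interaction kept the call. GBP1, IFI6, MX1, RSAD2 and SAMD9L lost theirs under Esrrb without DU145-pc3.1 replicate 1, at adjusted p from 0.0502 to 0.160. The cause was not tested. Having 2 libraries per group and few reads limits the calls of SAMD9L, RSAD2, XAF1, MX2 and IFITM1.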
